A study of Rattus norvegicus with 6 samples.

Results

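Transcript counts were examined for 9 genes of innate nucleic acid sensing in INS-1 cells, an insulin-secreting line derived from a rat insulinoma. The genes were taken by symbol, namely Ddx58, Ifih1, Dhx58, Mavs, Tlr3, Eif2ak2, Zbp1, Tmem173 and Tbk1. All 9 symbols had a named row, so 9 of the 21553 genes with a named row are described. The study compared INS-SMA cells, made by lentivirus to express alpha smooth muscle actin (α-SMA) and labelled SMA overexpression, with INS-MOCK cells, labelled wild type. Both groups were INS-1 cells at passages 7 to 15, and each had 3 libraries that the series calls biological replicates (n = 3 and n = 3). Whether INS-MOCK cells received a virus, and whether either line was a clone or a pool, is not given in the sources used here.

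RIG-I (encoded by Ddx58) and MDA5 (Ifih1) are helicases that bind foreign or misplaced double-stranded RNA in the cytosol, and LGP2 (Dhx58) is a related helicase that lacks their signalling domain. RIG-I and MDA5 signal through MAVS on the mitochondrial surface, whereas STING (Tmem173) relays a signal that starts with cytosolic DNA. Both adaptors engage the kinase TBK1 (Tbk1), which activates transcription factors that drive interferon genes. PKR (Eif2ak2) binds double-stranded RNA and slows translation, and ZBP1 (Zbp1) binds nucleic acids in the Z form. TLR3 (Tlr3) also senses double-stranded RNA but sits in endosomes, so the group is not cytosolic throughout. Several of these genes are themselves induced by interferon.

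Total counts per library ranged from 24719503 to 39608609. Rows that name no gene took 32.7% to 33.0% of them in INS-MOCK and 35.8% to 36.7% in INS-SMA, and could be assigned to none. A low value for a gene can therefore mean that its reads were counted in an unnamed row. Human ACTA2, the expressed sequence, was at 4.62 to 7.14 CPM (counts scaled to a common library size, with TMM factors) in INS-MOCK and at 44302 to 56546 CPM in INS-SMA. Of 12 beta cell markers, 11 had a named row, and 10 of the 11 tested fell in INS-SMA (summed level 39610 to 42490 CPM against 4006 to 4936 CPM). Of 10 immune cell markers, 6 had a named row, summing to 0.743 to 2.51 CPM in INS-MOCK and 3.49 to 4.51 CPM in INS-SMA. Cd14 and Cd163 were at 0 counts in every INS-MOCK library. Ptprc (CD45) was at 0 in INS-MOCK and at 1.13 to 1.86 CPM in INS-SMA, and of 4 tested immune markers it alone passed. The log2 fold changes of Cd68, Csf1r and Adgre1 were -0.82, 0.24 and 3.22 (edgeR adjusted p = 0.44, 0.672 and 0.0665). Of 6 fibroblast and endothelial markers, 5 had a named row, summing to 13.7 to 16.9 CPM and 11.0 to 12.7 CPM, with Col1a2 and Cdh5 at 0 counts in every INS-MOCK library. Of the 2 tested, Pdgfra, which makes up most of that sum, fell by 0.89 on the log2 scale, and Col3a1 rose from at most 0.124 CPM to 2.10 to 3.67 CPM (edgeR adjusted p = 0.00224). The part of other cells in the values below was not tested, and in bulk RNA fewer cells of a type and less RNA per cell cannot be told apart.

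Of the 9 genes, 3 passed the test between groups, all higher in INS-SMA. Tmem173 was at an even level within each group. Zbp1 and Tlr3 were counted only in INS-SMA libraries, so they passed the filter through that group alone and could only be called higher. The helicase genes Ifih1 and Dhx58 and the kinase gene Eif2ak2 were also above INS-MOCK in all 3 INS-SMA libraries without passing the test. Mavs and Tbk1 lay at similar levels in both groups, and Ddx58 was too uneven between libraries to compare. In edgeR's quasi-likelihood test with Benjamini-Hochberg adjustment over 13363 tested genes (threshold 0.05), 3 of 9 were higher and 0 lower, against 28.1% higher and 27% lower among all tested genes (55.1% in either direction). No gene of the 9 was lower at an unadjusted p of 0.05 or with DESeq2 either. The groups did not overlap for 6 of the 9, all higher. Of all tested genes, 33.5% were higher and 31.9% lower without overlap (65.3% in either direction). The median log2 fold change of the 9 was 1.34, and that of all tested genes was 0.03. The share of the 9 called higher (33.3%) is near that of all tested genes. The share called in either direction, also 33.3%, is below that of all tested genes, and neither difference was tested. These shares, the count without overlap and the median all include Zbp1 and Tlr3.

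**Figure D1:**
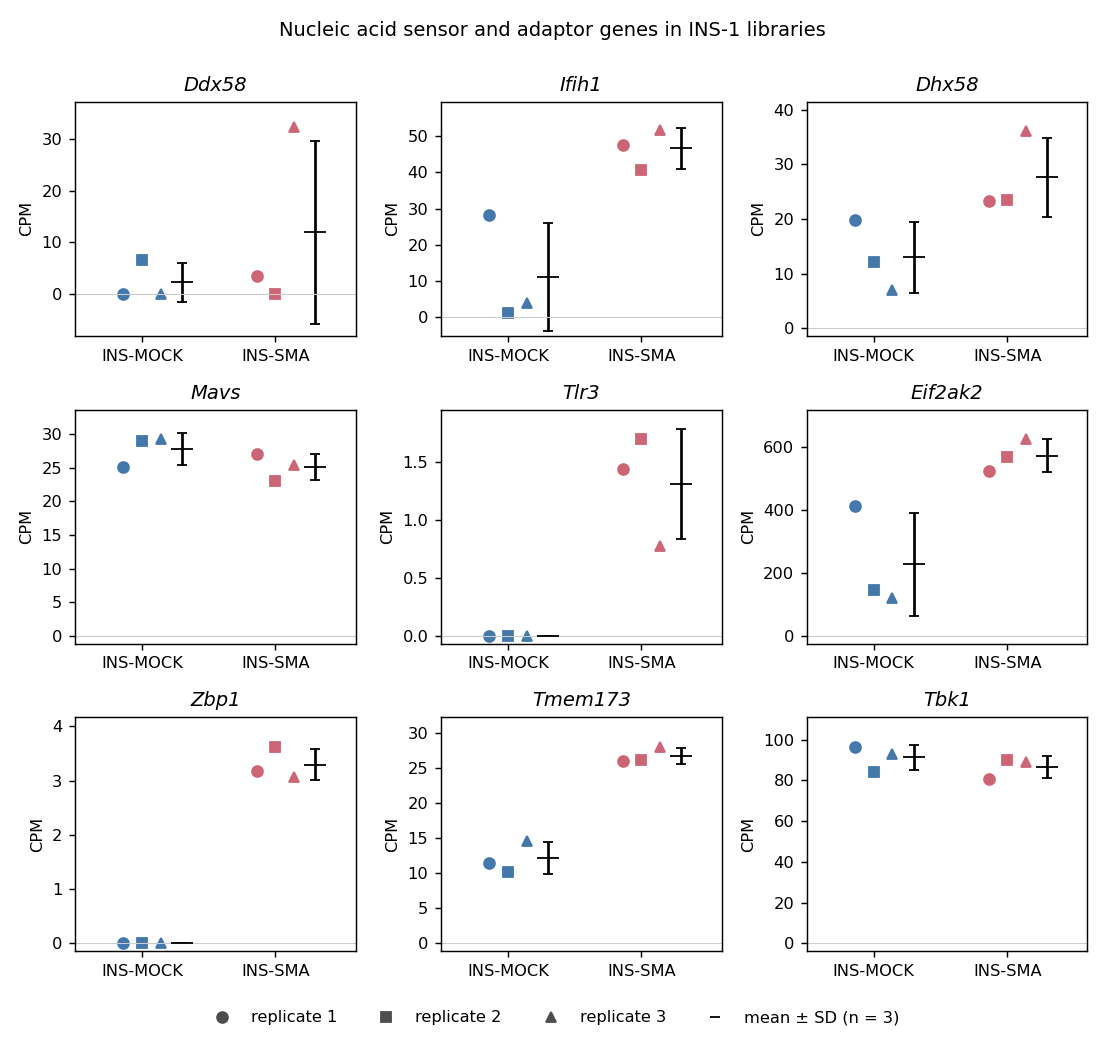
CPM of the 9 genes in each of the 6 libraries, 1 panel per gene with its own linear axis, symbols giving the replicate number and black bars the mean and SD of 3 libraries. INS-MOCK replicate 1 lies above the other INS-MOCK libraries for Ifih1, Dhx58 and Eif2ak2, and Zbp1 and Tlr3 are at 0 in all INS-MOCK libraries.

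One INS-MOCK library decided several of these calls. INS-MOCK replicate 1 stood above both other INS-MOCK libraries for Ifih1, Dhx58 and Eif2ak2. Without it, 6 of 9 genes were higher and 0 lower by the same test, against 26.4% higher among 13906 tested genes (50.1% in either direction). The 3 genes that joined were Ifih1, Dhx58 and Eif2ak2. That library was singled out after these values were seen, and leaving it out lowers the control mean of the same 3 genes. The count of 6 is therefore a description and no independent support. Results for these genes are given with and without that library.

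Among the RNA helicases, Ifih1 was far from even in the control group. Ifih1 (ENSRNOG00000006227, chromosome 3, 48557696 to 48604097, minus strand, in the coordinates of the deposited table) was at 28.1, 1.30 and 3.89 CPM in INS-MOCK replicates 1, 2 and 3. In INS-SMA it was at 47.5, 40.7 and 51.7 CPM. All 3 INS-SMA libraries were above all 3 INS-MOCK libraries, but INS-MOCK replicate 1 lay nearer to INS-SMA than to its own group. The means were 11.1 ± 14.8 and 46.6 ± 5.56 CPM (SD, n = 3 each), and the log2 fold change was 2.07 (SE 1.09, edgeR adjusted p = 0.167). Its 95% interval ran from -0.66 to 4.80. Without INS-MOCK replicate 1 the value was 4.17 (SE 0.57, adjusted p = 0.00418 by edgeR).

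Dhx58 (ENSRNOG00000018247, chromosome 10, 88599680 to 88611105, minus strand) was at 19.9, 12.1 and 6.97 CPM in INS-MOCK and at 23.3, 23.5 and 36.1 CPM in INS-SMA. The groups did not overlap, and INS-MOCK replicate 1 was again the highest control and INS-SMA replicate 3 the highest of all. The log2 fold change was 1.09 (SE 0.42, edgeR adjusted p = 0.0739, interval 0.05 to 2.13), and it passed with DESeq2 (adjusted p = 0.00902). Without INS-MOCK replicate 1 it was 1.54 (edgeR adjusted p = 0.021).

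Ddx58 (ENSRNOG00000006384, chromosome 5, 56500734 to 56536772, minus strand) had 0, 148 and 0 counts in INS-MOCK and 57, 0 and 833 in INS-SMA. That is 6.63 CPM in INS-MOCK replicate 2 and 3.42 and 32.4 CPM in INS-SMA replicates 1 and 3. The other 3 libraries had no count, although the depth would have shown a level above 0.124 to 0.138 CPM, the floor of 3 counts (counting error only). The groups overlapped, and neither held a stable level. The log2 fold change was 2.44 with an SE of 2.66 (edgeR adjusted p = 0.483), and it was -0.38 without INS-SMA replicate 3. Without INS-MOCK replicate 2, the one control library with counts, the fitted value was 11.05 (edgeR adjusted p = 0.149). INS-MOCK was then at 0 counts, so that value is no measured fold change. Of all tested genes, 239 (1.79%) were at 0 counts in 1 library and at 5 CPM or more in another of the same group, and Ddx58 was the only one of the 9 among them. Its single named row therefore gives no usable level of RIG-I mRNA in either group.

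The kinase and the other sensors differed in how evenly they were counted. Eif2ak2 (ENSRNOG00000048315, chromosome 6, 1428834 to 1466201, minus strand) was at 414, 147 and 119.8 CPM in INS-MOCK and at 523, 570.1 and 626 CPM in INS-SMA. Every INS-SMA library was above every INS-MOCK library, and the INS-SMA libraries lay close together. INS-MOCK replicate 1 was at 3.11 times the mean of the other 2. The log2 fold change was 1.34 (SE 0.50, edgeR adjusted p = 0.0686, interval 0.09 to 2.58), and 2.11 without that library (SE 0.12, edgeR adjusted p = 3.12e-04). With all libraries and DESeq2 the adjusted p was 0.0382. One of its 2 rows held 97.0% to 97.6% of its counts in every library, so the gene sum and its main transcript row carry the same pattern.

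Promoter windows were sought for all 9 genes. RefSeq windows of 300 bases (250 before and 50 after the gene start, build GRCr8) were matched by Entrez gene ID for 6 of the 9 genes, and Ddx58, Dhx58 and Zbp1 were not matched. A motif of GAAA, any 2 bases and GAAA again, the core of the interferon-stimulated response element, was searched on both strands. It was in 2 of the 6 windows, those of Ifih1 and Eif2ak2, once each, and in 3.92% of all 33469 windows of that length. The windows of Mavs, Tlr3, Tmem173 (listed there as Sting1) and Tbk1 did not hold these letters. The motif TTCNNNGAA, the gamma-activated sequence, which reads the same on both strands, was in none of the 6 and in 8.87% of all windows. Both windows with the response-element core are shown with the match in capitals. Whether the motif bears on the level of these genes in any library was not tested. A match of letters is a description of the window and not evidence of binding. The match covers bases 192 to 201 of the Ifih1 window (chr3:67683919-67684218, minus strand) and bases 235 to 244 of the Eif2ak2 window (chr6:21940904-21941203, plus strand), counted from the 5′ end.
Ifih1: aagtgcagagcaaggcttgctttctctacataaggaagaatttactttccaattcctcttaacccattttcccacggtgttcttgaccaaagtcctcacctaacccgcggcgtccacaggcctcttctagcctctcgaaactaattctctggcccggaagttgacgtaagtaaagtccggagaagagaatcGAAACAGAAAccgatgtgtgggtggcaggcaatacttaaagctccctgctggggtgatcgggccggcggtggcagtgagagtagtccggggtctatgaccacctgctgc
Eif2ak2: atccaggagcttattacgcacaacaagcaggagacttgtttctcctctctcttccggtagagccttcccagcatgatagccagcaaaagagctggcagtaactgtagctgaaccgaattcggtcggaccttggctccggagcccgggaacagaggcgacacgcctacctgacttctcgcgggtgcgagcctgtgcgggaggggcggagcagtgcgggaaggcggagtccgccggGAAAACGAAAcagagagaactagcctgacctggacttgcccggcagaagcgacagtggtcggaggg

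Zbp1 (ENSRNOG00000006314, chromosome 3, 171276062 to 171286537, minus strand) was not counted in INS-MOCK, at 0 in all 3 libraries. The INS-SMA libraries had 53, 79 and 79 counts, or 3.18, 3.62 and 3.07 CPM. The INS-SMA level was low but even, 3.29 ± 0.292 CPM. Against a floor of 3 counts per INS-MOCK library it was at least 25.6-fold higher (edgeR adjusted p = 4.13e-04). The gene has 2 named rows. One (ENSRNOT00000008365) was counted in all INS-SMA libraries, with 53, 46 and 53 counts, and the other (ENSRNOT00000081036) with 0, 33 and 26.

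Tlr3 (ENSRNOG00000021726, chromosome 16, 50016857 to 50031214, plus strand) was likewise at 0 in all 3 INS-MOCK libraries. It had 24, 37 and 20 counts in INS-SMA, or 1.44, 1.70 and 0.778 CPM, at least 10.1-fold higher against the same floor (edgeR adjusted p = 0.00324). With the replicate number as a block its adjusted p was 0.0565. Its 2 rows divided those few counts unevenly, 13, 37 and 0 in one (ENSRNOT00000087986) and 11, 0 and 20 in the other (ENSRNOT00000035781), so the gene sum is more even than either row. Zbp1 and Tlr3 entered the test only through their INS-SMA counts. Ptprc, given above as the 1 of 4 tested immune markers that passed, was likewise counted only in INS-SMA libraries. The part of immune cells in these results was not tested.

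The adaptors and the kinase they share split in 2 ways. Tmem173 (ENSRNOG00000042137, chromosome 18, 28529576 to 28535828, minus strand), the STING gene, was at 11.5, 10.2 and 14.6 CPM in INS-MOCK and at 26.0, 26.1 and 28.0 CPM in INS-SMA. The groups were well apart, and INS-MOCK replicate 1 lay between the other controls. It rose by 1.14 on the log2 scale (SE 0.16, adjusted p = 0.00171 by edgeR). The value was 1.11 without INS-MOCK replicate 1.

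Mavs (ENSRNOG00000025295, chromosome 3, 123776181 to 123790567, plus strand) was at 25.1, 29.0 and 29.3 CPM in INS-MOCK and at 27.0, 23.0 and 25.4 CPM in INS-SMA. The groups overlapped. The log2 fold change was -0.14 (SE 0.11, adjusted p = 0.299 by edgeR), with a 95% interval of -0.41 to 0.12. A 2-fold change in either direction lies outside that interval.

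The rows behind the even gene sum of Mavs were uneven. Mavs has 5 named rows, and the largest (ENSRNOT00000034146) held 36.2%, 53.6% and 61.2% of its counts in INS-MOCK replicates 1, 2 and 3. In INS-SMA it held 73.5%, 71.3% and 40.6%. The row ENSRNOG00000025295.3 ranged from 6.57% to 43.6% of Mavs counts in INS-MOCK and from 2.23% to 25.9% in INS-SMA. The row ENSRNOG00000025295.2 was at 48 counts in INS-SMA replicate 1 and at 3 or fewer in each other library. The shares of every row but ENSRNOT00000090764 overlapped between groups. That row held 8.47% to 18.6% of Mavs counts in INS-MOCK and 5.35% to 8.37% in INS-SMA, a difference that was not tested. The largest row taken alone had a log2 fold change of 0.19 (edgeR adjusted p = 0.71 in the fit on the most abundant row of each gene), opposite in sign to the sum.

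**Figure D2:**
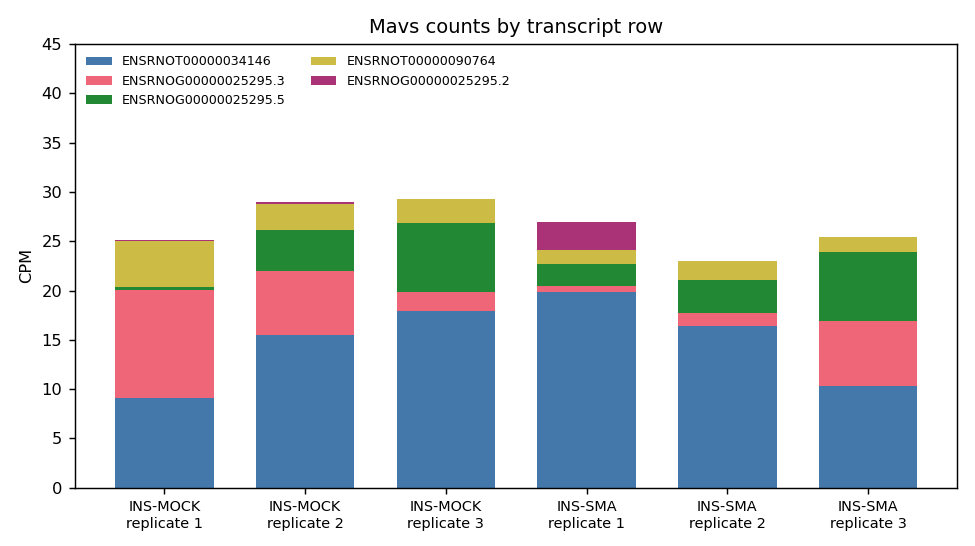
CPM of Mavs in each library, stacked by its 5 transcript rows. The stacks reach 23.0 to 29.3 CPM, while the lowest segment (ENSRNOT00000034146) ranges from 9.09 to 19.8 CPM.

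Tbk1 (ENSRNOG00000005528, chromosome 7, 63655247 to 63687978, minus strand), read from 1 row, was at 96.6, 84.3 and 93.0 CPM in INS-MOCK and at 80.6, 90.1 and 89.2 CPM in INS-SMA. The groups overlapped. The log2 fold change was -0.08 (SE 0.07, edgeR adjusted p = 0.433, interval -0.26 to 0.11), and its sign turned without normalisation factors (0.02). Tbk1 and Mavs had the narrowest intervals of the 9 genes.

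**Figure D3:**
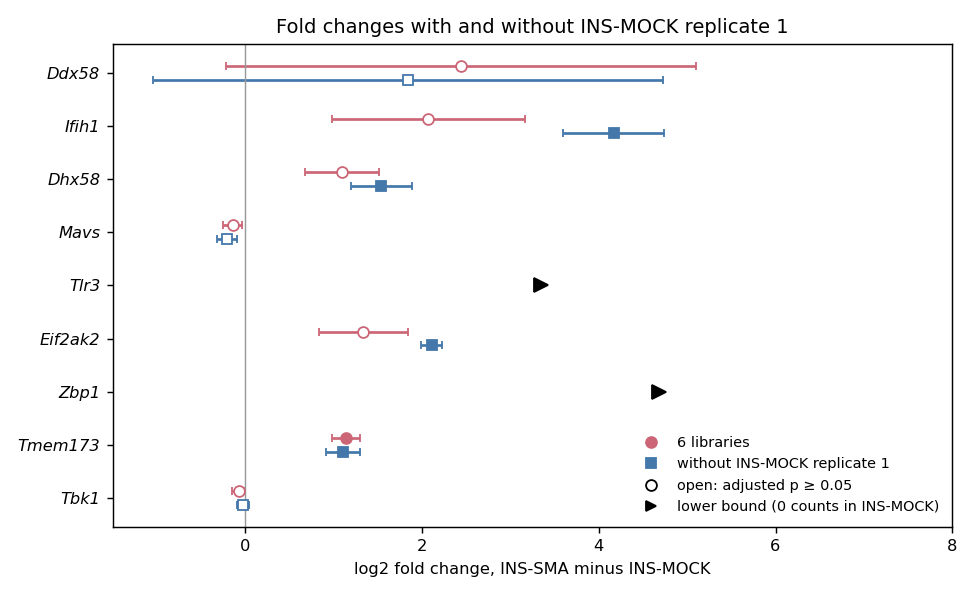
Log2 fold change (INS-SMA minus INS-MOCK) with its SE for the 9 genes, from all 6 libraries (circles) and without INS-MOCK replicate 1 (squares), filled where the edgeR adjusted p was under 0.05. Triangles are lower bounds for Tlr3 and Zbp1, and Ifih1 moves from 2.07 to 4.17 when that library is left out.

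The rest of the pathway was read from lists arranged by role, which hold 99 further genes with a named row, 87 of them tested. Of these 44 rose and 14 fell, so 66.7% passed against 55.1% of all tested genes, with a median log2 fold change of 0.53. The 44 include genes uncounted in INS-MOCK, such as Ikbke and Ifnb1. Those entered the test only through INS-SMA and could only be called higher. Without INS-MOCK replicate 1, 47 rose and 12 fell. Over all 6 libraries, 28.1% of all tested genes were higher and 27% lower. The lists were chosen with earlier results of these data known, so their counts are a description and no independent support. Standard deviations in what follows are over 3 libraries, and each adjusted p is from the same edgeR test.

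Partners and regulators of RIG-I and MDA5 moved in both directions. Of 18 tested, 8 rose and 6 fell (median 0.31), and 4 rose in the fit on the most abundant row. The deubiquitinase gene Usp15 rose from 29.7 ± 7.57 to 340.4 ± 23.5 CPM (3.52 on the log2 scale). The helicase gene Dhx15 rose from 276 ± 9.15 to 494 ± 18.5 CPM (0.84), a call lost in its most abundant row (0.46, adjusted p = 0.0759). Rnf5, a ubiquitin ligase gene, fell from 70.2 ± 4.49 to 30.3 ± 3.11 CPM (-1.21). Mfn1, for a mitochondrial fusion protein, was at 36.3 ± 5.32 and 37.4 ± 21.4 CPM (log2 fold change 0.04, adjusted p = 0.952, of either sign over the alternatives). Trim25, the ligase that modifies RIG-I, was chosen after its values were seen. It had an adjusted p of 0.292, and of 0.00653 without INS-MOCK replicate 1, where it stood at 2.30 times the mean of the other 2 controls.

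Among genes of DNA sensing, 3 of 12 tested rose and 3 fell. Samhd1, a nucleotide triphosphohydrolase gene, rose from 5.71 ± 0.763 to 32.6 ± 1.81 CPM (2.51). Ddx41, a helicase gene, fell from 491 ± 10.4 to 269 ± 17.5 CPM (-0.87). Rnaseh2c, a subunit of ribonuclease H2, fell from 13.6 ± 0.18 to 2.31 ± 0.392 CPM (-2.55). Tmem203 was at 10.7 ± 1.24 and 10.9 ± 1.20 CPM (0.03, adjusted p = 0.878, of either sign over the alternatives). Cgas, the DNA sensor that makes the ligand of STING and a gene named here after its values were seen, had 4 counts in INS-MOCK replicate 3 and 0 in the other 5 libraries. It was too low to test.

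Of 6 tested genes around the endosomal receptors, 2 rose and 3 fell. Without INS-MOCK replicate 1 these were 2 and 1, without INS-SMA replicate 1 they were 1 and 4, and without any other single library 1 and 1. None fell in the most abundant row. Traf6, a ubiquitin ligase gene of Toll-like receptor signalling, rose from 22.7 ± 2.18 to 32.1 ± 2.03 CPM (0.50). The kinase gene Irak4 rose by 0.65 (adjusted p = 0.0352), a call lost in 7 of 16 alternatives, among them leaving out any library but INS-MOCK replicate 1 (adjusted p up to 0.108). The receptor chaperone gene Cnpy3 fell from 111 ± 1.03 to 61.6 ± 4.94 CPM (-0.85), a call lost in its most abundant row (adjusted p = 0.104). Hsp90b1, another receptor chaperone, was at 415 ± 35.8 and 26.4 ± 42.6 CPM (adjusted p = 0.0822). INS-SMA replicate 1 was far above the other INS-SMA libraries, and without it the adjusted p was 4.21e-05 and the log2 fold change -7.79, against -3.98 with it. Tlr7, Tlr8 and Tlr9, chosen after their values were seen, had at most 3 counts in any library.

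Genes around TBK1 were higher more often than lower, with 8 of 14 tested rising and 1 falling (median 1.42). Ikbke, which encodes the kinase IKKε, the closest relative of TBK1, had 0 counts in every INS-MOCK library and 244, 361 and 352 in INS-SMA. That is 15.0 ± 1.46 CPM, at least 116-fold higher (adjusted p = 1.16e-04). Ikbke, among the 8 that rose, entered the test only through INS-SMA and could only be called higher. Tbk1 had an interval of -0.26 to 0.11, and the difference between these kinase genes was not tested. The adaptor gene Traf2 rose from 59.7 ± 3.68 to 192 ± 2.47 CPM (1.69). Chuk, for the kinase IKKα, rose from 251 ± 4.56 to 403 ± 12.4 CPM (0.68; adjusted p = 0.532 in its most abundant row). Ikbkg, for the IKK scaffold NEMO, was at 4.47 ± 0.361 and 4.23 ± 0.976 CPM (-0.08, adjusted p = 0.798, of either sign over the alternatives). Irf7, the interferon regulatory factor downstream of both kinases and chosen after its values were seen, rose from 8.68 ± 1.68 to 183 ± 127 CPM.

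Around PKR, 11 of 19 tested genes rose and 1 fell (median 0.98), and without INS-MOCK replicate 1 these were 14 and 1. In the most abundant row 6 rose. Ppp1r15a, whose product GADD34 reverses the phosphorylation that PKR sets on eIF2α, rose from 34.0 ± 1.82 to 328 ± 34.5 CPM (3.27). Dnajc3, whose product inhibits PKR, was the gene that fell, from 93.9 ± 4.40 to 44.9 ± 3.42 CPM (-1.07). Eif2ak1, another eIF2α kinase gene, was uneven at 63.3 ± 56.3 and 57.8 ± 87.9 CPM (-0.13, adjusted p = 0.952, of either sign without single libraries).

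No partner of ZBP1 in cell death passed, in 5 tested genes, with 0 calls also at an unadjusted p of 0.05 and with DESeq2. Ripk1, the kinase gene shared by death pathways, was at 97.5 ± 5.07 and 102 ± 7.98 CPM (0.06, adjusted p = 0.508, and -0.02 with unnamed rows in the library sizes). Casp8 was at 1.08 ± 0.22 and 0.767 ± 0.456 CPM (adjusted p = 0.521). Mlkl, the executor of necroptosis, was at 3.57 ± 3.07 and 10.1 ± 14.8 CPM (1.49, adjusted p = 0.407). Most of its INS-SMA counts were in replicate 1, with 453 against 36 and 35, and its log2 fold change was -1.24 without that library. Casp6 was at 3.66 ± 0.608 and 0.963 ± 0.85 CPM, lower without overlap between the groups (-1.90, adjusted p = 0.207). It passed without INS-SMA replicate 1 (-1.34, adjusted p = 0.0179). Zbp1, uncounted in INS-MOCK, could only be called higher, whereas its tested partners could be called in either direction and none passed. The difference between them was not tested. Ripk3, a further partner on the list, had no named row, and Cflar was not kept by the filter. Neither could be read here.

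Target genes of the pathway rose in 12 of 13 tested cases, where 28.1% of all tested genes were called higher. The median log2 fold change was 9.73, or 7.67 when each gene uncounted in INS-MOCK takes its lower bound. Those uncounted genes entered the test only through INS-SMA and could only be called higher. The list was chosen with earlier results of these data known, so the count is no independent support. The chemokine genes Cxcl10 and Cxcl11 rose from 3.68 ± 0.519 to 747 ± 17.5 CPM and from 8.17 ± 0.572 to 312 ± 6.04 CPM. Nfkbia rose by 2.43 on the log2 scale. Tnfaip3, for an inhibitor of NF-kappaB, was at 0.984 ± 0.515 and 0.993 ± 0.383 CPM (0.02, adjusted p = 0.98, of either sign over the alternatives). Ifnb1, the interferon beta gene and one chosen after its values were seen, had 0 counts in INS-MOCK and 156, 167 and 258 in INS-SMA, at least 70.02-fold higher.

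**Figure D4:**
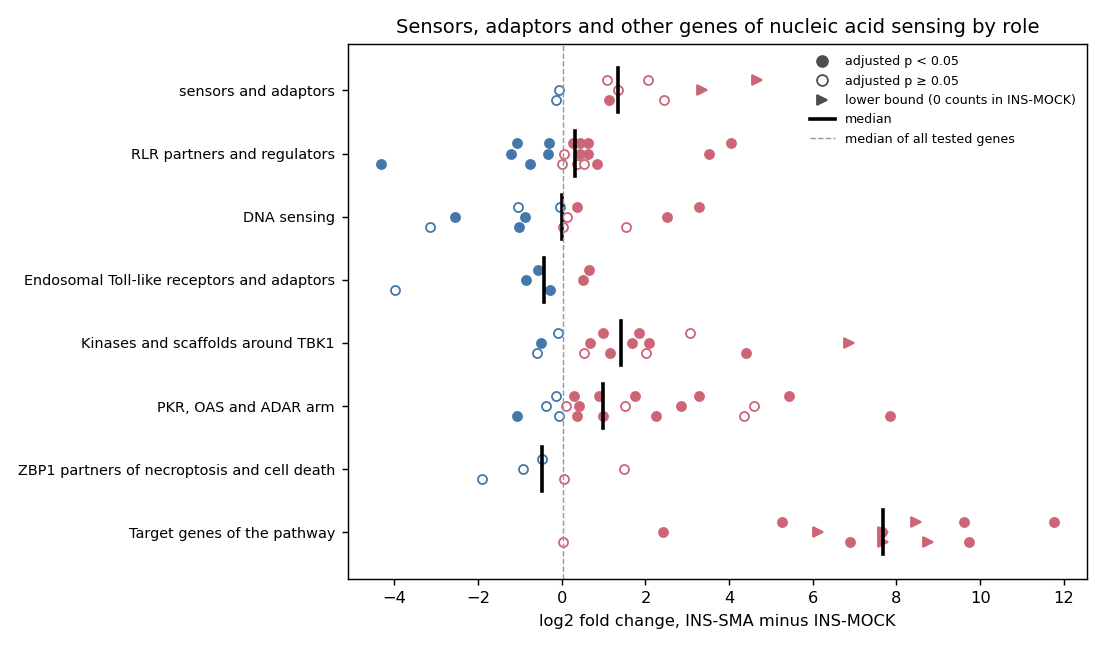
Log2 fold change (INS-SMA minus INS-MOCK) of each tested gene, by role, filled where the edgeR adjusted p was under 0.05, with triangles for lower bounds and black bars for medians. The 9 sensors and adaptors have a median of 1.34 and the target genes, with bounds, one of 7.67; Ifit3, with 2 counts over all INS-MOCK libraries, is drawn at its fitted value.

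The excess in INS-MOCK replicate 1 was not shared evenly among these genes, a pattern chosen after the values were seen. Of the 7 sensors and adaptors with counts in INS-MOCK replicates 2 or 3, 3 were at 2 times their mean or more in replicate 1, namely Ifih1 (10.8), Eif2ak2 (3.11) and Dhx58 (2.09). Among all tested genes with such counts this held for 4.92%, and the median ratio was 0.997. It held for 11 of 79 further pathway genes.

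The same library can be read as a percent of the INS-SMA mean, a value that also falls with the size of each gene's difference between groups. Eif2ak2 in that library was at 72.3% of its INS-SMA mean, Dhx58 at 72.0% and Ifih1 at 60.3%. In the other 2 controls together they were at 23.2%, 34.5% and 5.56%. The 6 target genes drawn, chosen after their values were seen, ranged from Rsad2 at 0.278% to Nfkbia at 18.5% in replicate 1. Rsad2 and Ifit1 were 7.57 and 16.5 times as high there as in the other controls, whereas Nfkbia (18.6% in those) and Cxcl11 (2.68% and 2.59%) showed no such excess. A high percent alone marks no excess, since Eif2ak3, another eIF2α kinase gene, was at 91.7% in replicate 1 and at 94.2% in the other controls. The 2′-5′ oligoadenylate synthetase family, paralogs among which reads may be split uncertainly, spanned a range from Oas1i at 72.9% to Oasl at 1.20%. Human ACTA2 in that library, at 5.58 CPM, lay between the other controls. What sets this library apart was not tested.

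**Figure D5:**
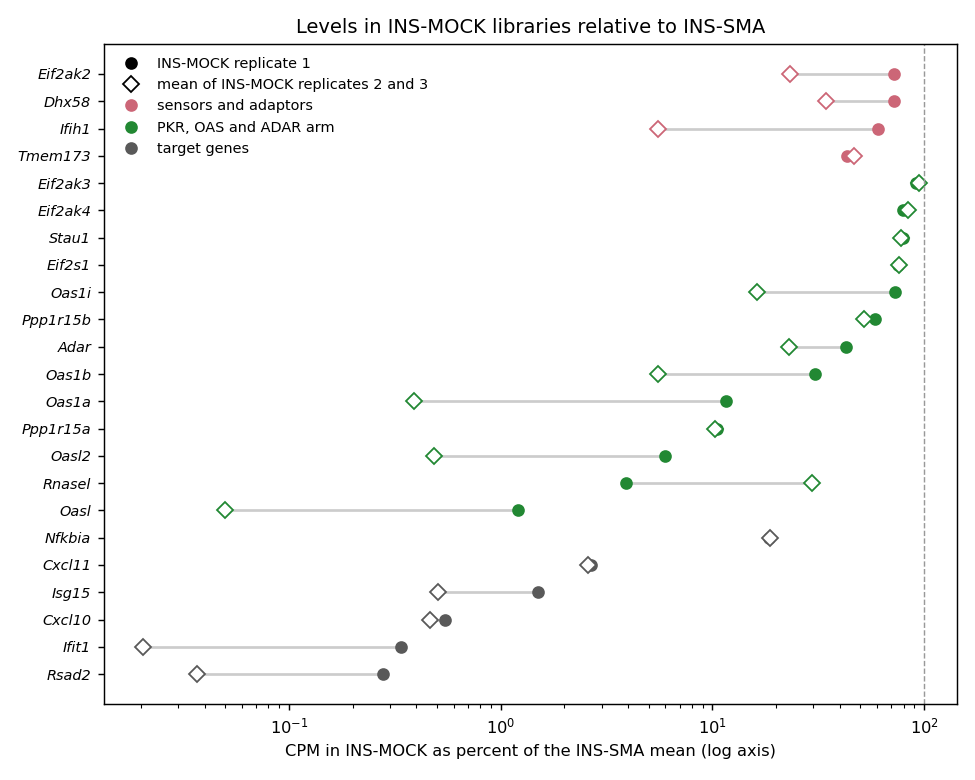
CPM in INS-MOCK replicate 1 (filled circles) and mean CPM of INS-MOCK replicates 2 and 3 (open diamonds), each as percent of the INS-SMA mean on a log axis. Genes are the sensors and adaptors, those around PKR and the target genes, where higher in INS-SMA without overlap and counted in both. Of such genes, 1 is not drawn. The distance between the symbols is wide for Eif2ak2, Dhx58 and Ifih1, at 60.3% to 72.3% in replicate 1, and narrow for Tmem173, Eif2ak3 and Nfkbia.

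The genes nearest in pattern to Tmem173, of the 3 genes that passed the one counted in every library, were sought among 9355 tested genes with a mean of at least 5 CPM. Likeness was the Euclidean distance between centred log2 CPM profiles over the 6 libraries. The nearest were Cbx8 (0.169), Plce1 (0.193), Arhgef37 (0.20), Cdkl3 (0.206) and Mpp5 (0.223). Cbx8, a Polycomb group gene, was at 29.2 ± 4.32 and 69.4 ± 1.24 CPM. None of these 5 is on the pathway lists. Zbp1 and Tlr3 lay under the minimum of 5 CPM and were not candidates.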

How the data were processed

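RNA from 3 INS-MOCK and 3 INS-SMA cultures was sequenced, per the labels' protocols. The authors deposited unnormalised counts by transcript row, with a column for each library, per the file headers. HISAT2, HISAT and DESeq2 and the builds hg19 and rn6 are named in the submitters' processing notes without their roles. Which program counted the reads, with which annotation and strand setting, is not given in the sources used here. Of 101905 rows, 66301 name no gene (32.7% to 36.7% of a library's counts) and entered neither library sizes nor tests.

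Counts were summed per gene (21553 genes), filtered with filterByExpr (13363 kept) and compared with edgeR 4.0.16 (R 4.3.3), with TMM factors, glmQLFit and glmQLFTest, group as the only term, and Benjamini-Hochberg adjustment. The SE is the log2 fold change divided by the square root of F. Transcript lengths were not used, so levels are not compared between genes. Tested genes held 15851326 to 25075476 counts per library, and 3 counts, the floor, equal 0.117 to 0.18 CPM. Every pair of replicates differed beyond sampling noise (chi-square of 45 to 58.6 per degree of freedom), and all were used as separate samples. The test was tested on simulated data. Alternatives were DESeq2 1.42.0, other factors and filters, row and library choices, a replicate block and leaving out each library. Named genes are the 9 members, in each role the 3 tested genes with the smallest and the 1 with the largest adjusted p, ACTA2, and the 5 profiles nearest to Tmem173. One gene that this rule names is not reported here. Members and lists were chosen with earlier results of these data known.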

Additional observations from a re-analysis of the deposited data

How the results depend on the processing

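Over 16 alternatives the 9 genes gave 142 values, of which 133 kept direction and side of the threshold. The count of sensors and adaptors past the threshold was 3, all higher, where 3753 of 13363 tested genes were higher and 3606 lower. With DESeq2 it was 5 (Dhx58 and Eif2ak2 joining), where 4371 of 13363 were higher and 3929 lower. With single libraries left out it was 3 to 6, where 3458 to 3672 of all tested genes were higher and 3239 to 3474 lower. The 6 came without INS-MOCK replicate 1, where 26.4% of all tested genes were higher. Tmem173 and Zbp1 passed in all 16. Tlr3 lost its call with the replicate block (adjusted p = 0.0565), where 2 of the 9 genes passed. It was not tested under the strict filter or in its most abundant row. With that block 3138 genes were higher and 3156 lower over the whole table. Same-numbered libraries did not deviate together (r of deviations -0.0284, -0.013 and -0.0263), and no library correlated best with its own number. These correlations gave no sign of pairing, but they cannot settle whether the numbers pair the cultures.

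The sign turned for Ddx58 without single libraries (-0.38 to 11.05), for Mavs in its most abundant row (0.19) and for Tbk1 without normalisation factors (0.0163). The 11.05 was fitted against 0 counts in INS-MOCK and is no measured fold change. The sign turned as well for other genes that did not pass, and the cause was not tested. With unnamed rows in the library sizes these were Mfn1 (-0.0431), Tmem203 (-0.0506), Ripk1 (-0.0189) and Tnfaip3 (-0.0603). Mfn1 was at -0.15 with the replicate block, and Ikbkg at 0.0174 without normalisation factors. Without single libraries the ranges were -0.36 to 0.44 for Mfn1, -0.0578 to 0.12 for Tmem203, -0.28 to 0.0354 for Ikbkg, -3.16 to 0.72 for Eif2ak1, -1.24 to 2.48 for Mlkl and -0.29 to 0.52 for Tnfaip3. Adding unnamed rows by position was not run, because the table gives those rows no coordinates. Reads in unnamed rows and the floor of 3 counts limit what can be said of Ddx58, Tlr3 and Zbp1.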
